A study of Mus musculus with 6 samples.

Results

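The clustered protocadherin genes were taken as the protein-coding genes whose GENCODE mouse symbol starts with Pcdha, Pcdhb or Pcdhg, 57 genes in all: 14 Pcdha, 22 Pcdhb and 21 Pcdhg. Enhancer predictions for 33 of them were found among the 32049 target genes of the control and the IFN-γ tables together. The rule for membership uses symbols and biotype and no measured value. In the GENCODE release used, 2 gene identifiers carry the symbol Pcdha11, and only the more 3′ of the pair, with its TSS at position 37010712 of chromosome 18, was listed.

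The data came from primary oligodendrocyte precursor cells (OPCs) of mouse pup brains, labelled as strain C57BL/6j with the genotype Sox10-Cre/RCE. Sox10 marks the oligodendrocyte lineage and drives the Cre recombinase that switches on the green fluorescent RCE reporter, and both groups carried both alleles. By the study's methods, cells of several brains were pooled and sorted by this fluorescence or by magnetic selection of CD140a, the PDGF-AA receptor of OPCs. Ctr-OPCs stayed in proliferation medium with bFGF and PDGF-AA, whereas IFN-γ-OPCs received 100 ng/mL IFN-γ in that medium from 24 h after passaging. H3K27ac HiChIP, which enriches chromatin contacts of regions with this active mark, was done on 3 libraries per condition, from different litters by the study's methods.

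Clustered protocadherins are cadherin-type adhesion proteins of the cell surface, known chiefly for the molecular identity that they give to neurons. Each variable first exon of the Pcdha and Pcdhg arrays has its own promoter and is spliced to constant exons shared by the array, whereas Pcdhb genes hold their coding sequence in a single exon. In neurons most variable promoters are used by choice in individual cells, the C-type promoters (Pcdhac1, Pcdhac2, Pcdhgc3, Pcdhgc4 and Pcdhgc5) are used more broadly, and distal enhancers 3′ of the Pcdha and Pcdhg arrays reach many promoters through loops that depend on CTCF and cohesin.

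Contacts, ATAC-seq and H3K27ac had been combined by the authors in the activity-by-contact (ABC) model. The ABC score of an element for a gene is the element's activity times its contact with the gene's promoter, as a fraction of this product summed over all elements around the gene (the gene total). Pairs were listed from a score of 0.02 upward, and genes from 0.4 upward on the promoter activity quantile, a rank of promoter activity among genes. One pooled table stands for each condition, so no value has a replicate error, no difference between conditions could be tested, and the depth is unknown. All 8 OPC markers examined were listed, with promoter quantiles of 0.851 to 0.995 in Ctr-OPCs and 0.815 to 0.994 with IFN-γ, while 8 of 8 neuronal markers were listed at 0.468 to 0.938 and 0.506 to 0.924 (medians 0.723 in both), with Map2 and Tubb3 inside the range of the OPC markers, and 3 and 5 of 6 microglial markers with medians of 0.621 and 0.625. Of 5 astrocyte markers, 4 were listed in each table, with medians of 0.696 and 0.628. Promoter activity is not expression, and the part of other cell types in the values below was not tested.

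Fewer protocadherin promoters reached the tables than promoters of other genes, and more of them did so with IFN-γ. Of the 57 members 21 were listed in Ctr-OPCs, 36.8%, beside 57% of all 21951 protein-coding genes. In IFN-γ-OPCs 29 were listed, 50.9%, beside 58.5% of protein-coding genes. Pcdhg was the best covered array, with 13 of 21 and 18 of 21 genes, against 3 and 5 of 14 Pcdha genes and 5 and 6 of 22 Pcdhb genes. Absence from a table can come from a low promoter quantile or from scores that all fell under the lower limit, and the tables do not say which.

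Of the 57 members 33 were listed in either table, 57.9% beside 67.9% of protein-coding genes, and 17 in both, 51.5% of the 33 beside 63.4% of all target genes. A further 12 were listed with IFN-γ but not in Ctr-OPCs, 36.4% of the 33, beside 19.6% of all target genes. They were Pcdha7, Pcdha9, Pcdhac2, Pcdhb3, Pcdhb15, Pcdhga2, Pcdhgb4, Pcdhgb5, Pcdhgb6, Pcdhga10, Pcdhgb7 and Pcdhga11, and thus included a run of neighbouring promoters in the 3′ part of the variable Pcdhg array. In the other direction Pcdha11, Pcdhb20, Pcdhgb1 and Pcdhga8 were listed in Ctr-OPCs but not with IFN-γ, 12.1% beside 17% of all target genes. The 24 members in neither table were 8 Pcdha genes, Pcdha1 to Pcdha6 among them, 15 Pcdhb genes and, from the Pcdhg array, Pcdhgb2.

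Elements were far from the protocadherin promoters and few in number. The 62 member pairs of Ctr-OPCs and the 72 of IFN-γ-OPCs each fell on 16 elements. The median distance from element to TSS was 108 kb and 109 kb, compared with 15.1 kb and 15.8 kb over all pairs of the tables. Pairs over 100 kb made up 53.2% of the member pairs in Ctr-OPCs (Wilson 95% interval 40.98 to 65.1%), beside 25.2% of all pairs, and 56.9% in IFN-γ-OPCs (45.4 to 67.7%), beside 25.1%. The intervals cover counting error only, and pairs that share an element or a promoter are not independent. The non-clustered protocadherin genes (12 of 12 listed), which are single genes with their own regulatory surroundings, had median distances of 2.89 kb and 5.47 kb, with 15.6% and 27.7% of pairs over 100 kb.

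**Figure D1:**
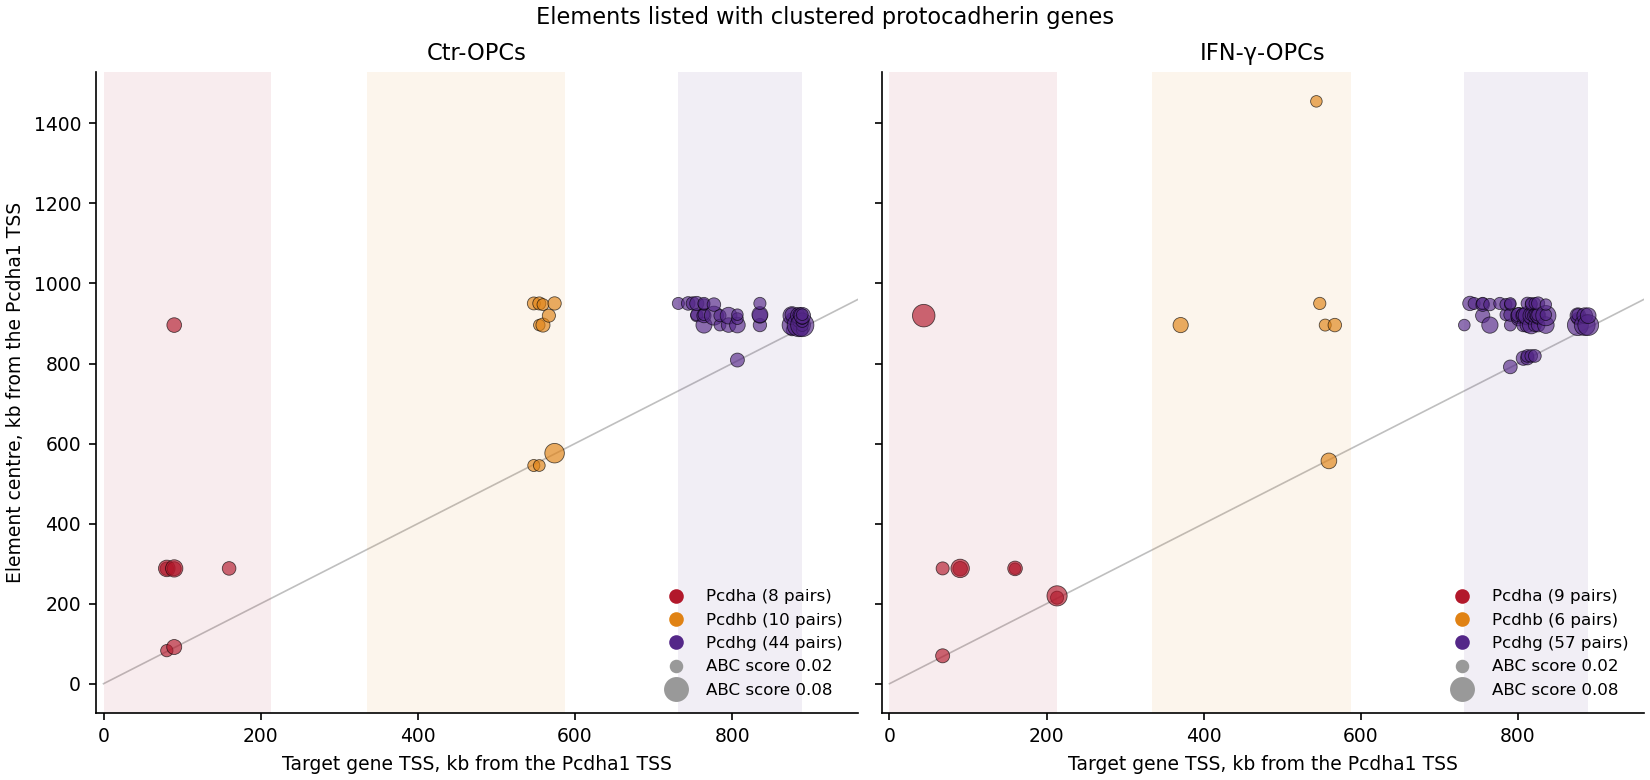
Position of each listed element (vertical axis, kb from the Pcdha1 TSS) against the TSS of its target gene (horizontal axis, same scale) in Ctr-OPCs (left, 62 pairs) and IFN-γ-OPCs (right, 72 pairs), where dot area follows the ABC score, shading spans the first to the last TSS of each array, and the line marks zero distance. Most pairs lie in horizontal rows, each an element or a group of neighbouring elements shared by several promoters, and few lie on the line.

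Of the 16 elements of each table, 8 were listed with members in both conditions, and they carried 49 of 62 pairs (79.0%) in Ctr-OPCs and 61 of 72 (84.7%) in IFN-γ-OPCs. All 33 pairs over 100 kb in Ctr-OPCs and 40 of 41 with IFN-γ went to these elements. Their positions are given here for the Ctr-OPC table, in mm10 (GRCm38) and counted from 1. A pair of elements, called interval 1 (chr18:37217244-37217743) and interval 2 (chr18:37217988-37218487), lay between the Pcdha and Pcdhb arrays, within introns of read-through gene models that span the locus. The constant-region element (chr18:37825830-37826563) was intronic in the Pcdhg genes, 6.68 kb 3′ of the Pcdhgc5 TSS. The 3′ flank element (chr18:37842070-37842569) was intergenic, between the end of Pcdhg and Diaph1, the gene of an actin-nucleating formin.

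The remaining shared elements lay in Diaph1 itself. They were Diaph1 A (chr18:37849512-37850011), Diaph1 B (chr18:37852015-37852514), Diaph1 C (chr18:37877173-37877672) and Diaph1 D (chr18:37880022-37880521). All were intronic in Ctr-OPCs, and the wider Diaph1 B element of the IFN-γ table also overlapped a coding exon of Diaph1. Diaph1 D was 60.8 kb from the Pcdhgc5 TSS, the closest promoter of the array.

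The constant-region element had the most members, 11 in Ctr-OPCs and 15 with IFN-γ, out of 19 and 22 target genes in all. Its activity, a signal derived from ATAC-seq and H3K27ac coverage, was 5.97 and 4.78, at percentiles 99.7 and 99.5 of all elements. Diaph1 A followed with 10 and 12 members and activities of 4.70 and 4.33, at percentiles 99.0 and 99.1. Both were thus among the most active elements of either table. Diaph1 D had 9 and 10 members at activities of 2.42 and 2.45, and Diaph1 B had 7 and 9 at 2.46 and 2.38. Interval 1 and interval 2 were listed with 2 and 3 members in each table, at the lower activities of 0.906 and 0.892 and of 1.40 and 1.45.

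Most elements of the locus were listed with several target genes. Elements with at least 2 members were 12 of 16 in Ctr-OPCs (75%) and 10 of 16 in IFN-γ-OPCs (62.5%). Over all elements of the tables, 40.1% and 39.7% had at least 2 target genes of any kind. Above a score of 0.05 few elements were left, 1 of 3 and 2 of 4 with at least 2 members, beside 29.0% and 28.3% of all elements. Neighbouring first exons lie close together here, and members whose TSSs fall in the same 5 kb contact bin receive the same contact: this was so in 9 combinations of element and bin, and Pcdhgc4 and Pcdhgc5 are such a pair of genes.

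Pcdhb and Pcdhg members had shared elements in common, and most pairs of Pcdha members were with others. The interval elements were listed with Pcdha members and with no Pcdhb or Pcdhg member. At these low activities, Pcdhb and Pcdhg genes listed under both conditions would have needed a contact of at least 0.0121, the lowest limit among them. The constant-region element was listed with 2 Pcdhb and 8 Pcdhg members in Ctr-OPCs and with 3 and 12 of them under IFN-γ. The Diaph1 elements took 5 Pcdhb and 24 Pcdhg pairs in Ctr-OPCs, and 1 and 35 in IFN-γ-OPCs. Single Pcdha members were listed with the 3′ elements in each table: Pcdha12 was listed with the constant-region element at 806 kb in Ctr-OPCs, and Pcdha7 with Diaph1 A at 876 kb in IFN-γ-OPCs. A further distant pair, Pcdhb15 with an intergenic element beyond Diaph1 at 912 kb, had a score of 0.0206 in IFN-γ-OPCs.

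Elements listed with members in a single table were mostly of another kind. In Ctr-OPCs they took 13 pairs, 10 of them within 10 kb, and in IFN-γ-OPCs 11 pairs, again 10 within 10 kb. Of 8 such elements per table, 5 and 6 overlapped a coding exon of a clustered protocadherin gene. These exon elements had low activities, 0.352 to 0.673 in Ctr-OPCs and 0.285 to 0.787 in IFN-γ-OPCs, at percentiles from 4.98 to 34.6 and from 2.33 to 48.8. Single-table elements outside such exons were more active, at 0.756 to 1.74 in Ctr-OPCs and at 1.09 and 4.41 in IFN-γ-OPCs. The exon elements had a median observed over expected CpG ratio of 0.526 (range 0.318 to 0.725) and 0.695 (0.238 to 0.788), compared with 0.228 and 0.226 over all elements. The shared elements had medians of 0.294 and 0.283, but interval 1 had 0.522 and 0.611, and interval 2 had 0.814 and 0.815. The other table listed an overlapping element with any gene for 1 of the 8 in each direction.

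Scores of the members were low. The median was 0.0270 in Ctr-OPCs (range 0.0203 to 0.0826) and 0.0276 with IFN-γ (range 0.02003 to 0.0780), and no member pair exceeded 0.1. A score above 0.05, the threshold for a connection in the study's methods, was reached by 5 of 62 pairs in Ctr-OPCs, 8.06% beside 17.5% of all pairs. In IFN-γ-OPCs it was reached by 8 of 72, 11.1% beside 17.4%. Each of these connections belonged to a different gene, so no member had more than 1, and 23.8% and 27.6% of the listed members had any, beside 34.3% and 35.6% of all listed genes.

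In the Pcdhg array the C-type genes held most connections. Pcdhgc4 and Pcdhgc5 were connected with the constant-region element at 0.0826 each in Ctr-OPCs and 0.0664 each in IFN-γ-OPCs. Pcdhgc3, the most 5′ of the C-type Pcdhg genes, was connected with the same element at 0.0595 and 0.0676. The order of these genes was therefore different in the tables, by differences for which no error is known. Among variable Pcdhg genes the connections differed: Pcdhga6 with Diaph1 A in Ctr-OPCs (0.0552), and Pcdhgb6 (0.0518) and Pcdhga12 (0.0627) with Diaph1 A in IFN-γ-OPCs.

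Pcdha members had no connection in Ctr-OPCs and 3 with IFN-γ, but 1 in each table when the authors' power-law score took the place of the score from measured contact. That recount covers listed pairs only, and its pair differed. In Ctr-OPCs it was Pcdha12 with an element over its own coding exon (0.0535), and in IFN-γ-OPCs Pcdhac2 with an element in its intron (0.0865). Pcdha12 with interval 2 moved from 0.0461 to 0.0523, a small step across the threshold. Pcdha7 with Diaph1 A had 0.0780, the highest member score of the IFN-γ table, and Pcdhac2 had 0.0627 with an element 6.16 kb 3′ of its TSS, in its intron. Neither gene was listed in Ctr-OPCs. Pcdhb members had a single connection, Pcdhb20 with an element over its own coding exon in Ctr-OPCs (0.0587), and none in IFN-γ-OPCs.

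Counted by gene, connections were more numerous with IFN-γ for 5 members (Pcdha7, Pcdha12, Pcdhac2, Pcdhgb6 and Pcdhga12), 15.2% of the 33 listed members, beside 14.9% of all target genes. They were fewer for 2 members, Pcdhb20 and Pcdhga6, 6.06% beside 13%. The share with more connections was near that of all genes. Each of these changes was a change of 1 connection, and for Pcdha7, Pcdhac2, Pcdhgb6 and Pcdhb20 the 0 stands for a gene absent from 1 table. Among the 17 members of both tables, Pcdha12 and Pcdhga12 had more connections with IFN-γ, 11.8% beside 16.5% of all genes of both tables, and Pcdhga6 had fewer, 5.88% beside 14.3%. All listed pairs together gave 13 members with more pairs and 13 with fewer, 39.4% each, beside 42.4% and 35.7% of all target genes, but 12 of the 13 with more were not listed in Ctr-OPCs. Among the members of both tables, 1 (Pcdhac1) had more pairs with IFN-γ and 9 had fewer, 5.88% and 52.9%, beside 36% and 29.4% of all genes of both tables.

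**Figure D2:**
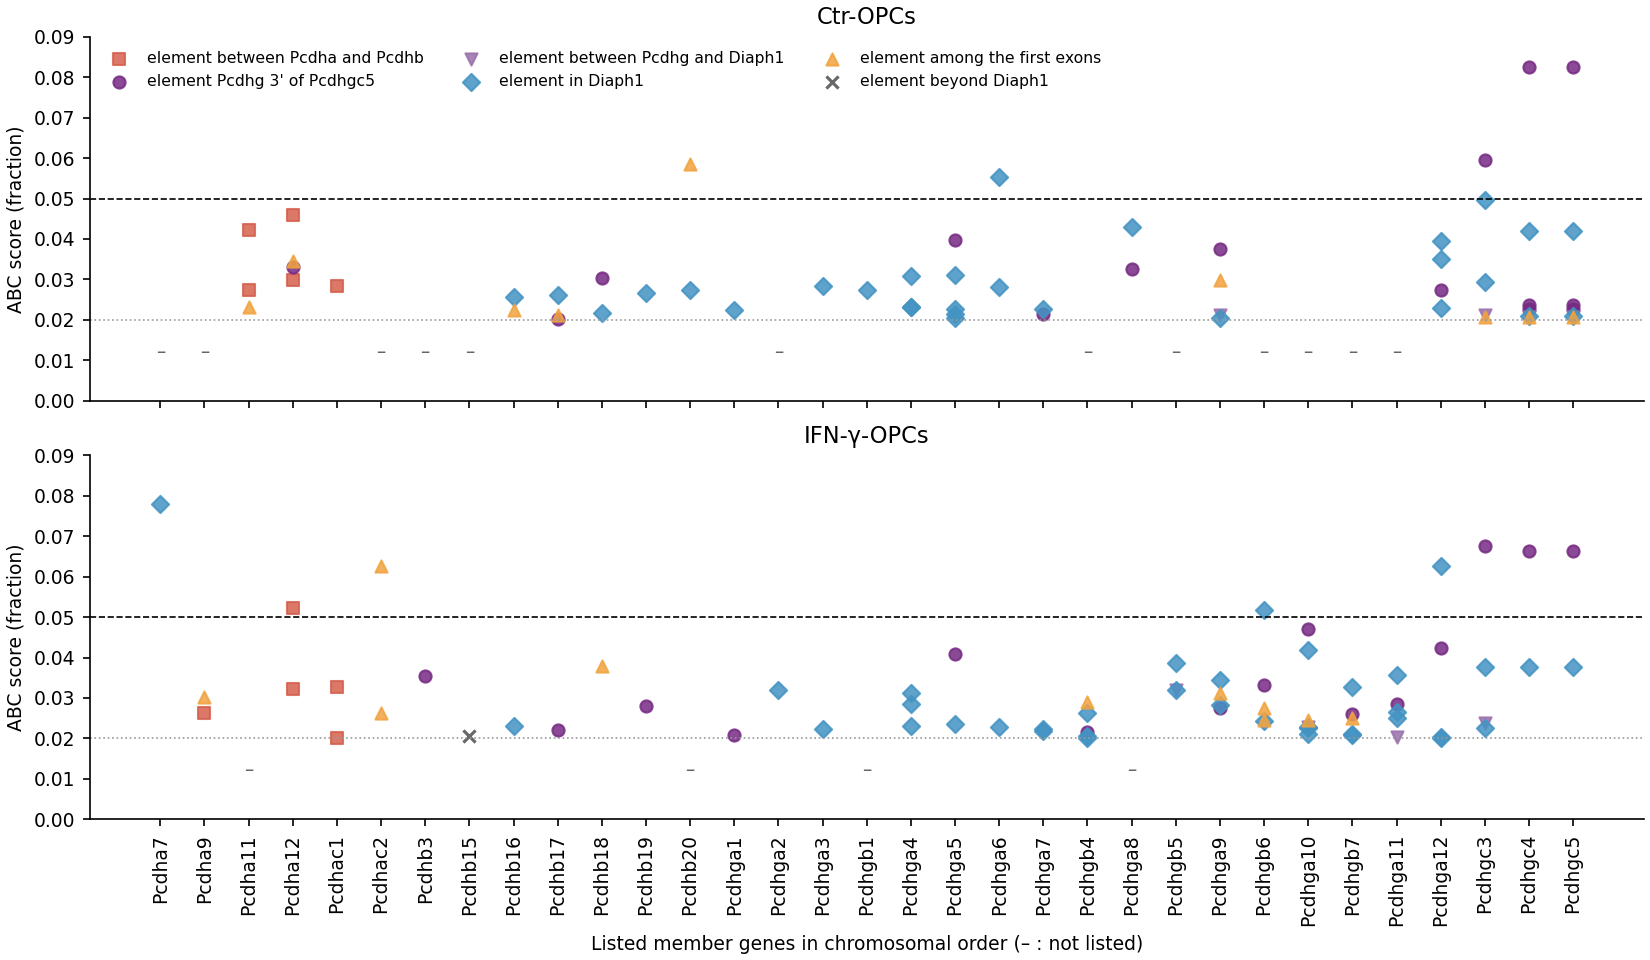
ABC score (fraction, vertical axis) of every listed pair of the 33 listed members in chromosomal order, in Ctr-OPCs (top) and IFN-γ-OPCs (bottom), with symbols for the place of the element, a dashed line at 0.05, a dotted line at the lower limit of 0.02, and a dash below it for a gene not listed. The highest scores are 0.0826 for Pcdhgc4 and Pcdhgc5 in Ctr-OPCs and 0.0780 for Pcdha7 in IFN-γ-OPCs, and most pairs lie between the 2 lines.

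Pairs of the Pcdhg array were spread differently over variable and C-type genes in the tables. Variable Pcdhg genes had 25 pairs in Ctr-OPCs and 49 with IFN-γ, on 10 and 15 listed genes. Pcdhga10 alone went from unlisted to 7 pairs, 1 with each of 7 elements, with scores of 0.0211 to 0.0471. Pcdhgb4, Pcdhgb6, Pcdhgb7 and Pcdhga11 went from unlisted to 5 pairs each, and Pcdhgb5 to 3. For an unlisted gene neither the promoter quantile nor any score is known, so these counts do not show by themselves that contact or activity differed.

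The 8 variable Pcdhg genes of both tables went from 22 pairs to 18, so the rise came from genes not listed in Ctr-OPCs. The 3 C-type Pcdhg genes, listed in both, went from 19 pairs to 8. Pcdhgc4 and Pcdhgc5 went from 7 pairs each to 2 each, and Pcdhgc3 from 5 to 4. The pairs no longer listed for Pcdhgc4 and Pcdhgc5 had scores of 0.0207 to 0.0236 in Ctr-OPCs, just above the lower limit, and the constant-region and Diaph1 A pairs stayed. The summed score of the listed pairs of Pcdhgc4 was 0.233 in Ctr-OPCs and 0.104 with IFN-γ. The lost pairs are thus small scores, and the drop in their number says little about their contacts.

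Contact was set against that expected from distance. The deposited contact, at 5 kb resolution and adjusted with a pseudocount, was divided by the contact that the authors' power law of distance gives. Its percentile was also taken among all pairs of the table whose distance lay within 20%. Member pairs stood above the median at their distance 49 times of 62 (Ctr-OPCs) and 56 times of 72 (IFN-γ-OPCs). For pairs at 100 to 200 kb the median ratio to the power law was 1.55 over 20 member pairs and 1.04 over all pairs in Ctr-OPCs, and 1.67 over 32 and 1.19 in IFN-γ-OPCs. Pairs enter the tables only above a score of 0.02, so distant pairs of low contact are missing. At equal activity the contact needed for listing grows with the gene total, whose median was 1.07 and 0.992 over the members of both tables, beside 0.862 and 0.830 over all genes of both. At equal activity the limit was thus stricter for members, but activity was not equal, and higher activity lowers the limit. At 100 to 200 kb its median was 2.46 for member pairs and 2.22 for all pairs in Ctr-OPCs, and 2.38 and 2.09 in IFN-γ-OPCs. In Ctr-OPCs it was 5.34 and 2.18 at 50 to 100 kb, and 0.673 and 0.807 within 10 kb. The comparison with all pairs is therefore not an even one.

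Pairs with the interval elements could enter the tables only at high contact. At its low activity, interval 1 needed a contact of at least 0.0210 to be listed with Pcdhac1 in Ctr-OPCs, whereas the constant-region element needed 0.00319. Pcdha12, the last listed variable Pcdha gene before the C-type exons, had an adjusted contact of 0.0306 with interval 2 in Ctr-OPCs and 0.0312 with IFN-γ, at 198 kb. This was 6.08 and 6.21 times the power-law value, at percentiles 99.7 and 99.3. The value was the same for interval 1, which falls in the same contact bin. Pcdha11 had 0.0296 in Ctr-OPCs, 6.13 times the power law at 208 kb, and Pcdha9 had 0.0147 in IFN-γ-OPCs, 3.21 times at 220 kb. Pcdhac1, a C-type gene nearer to the intervals at 128 kb, had 0.0194 and 0.0206, which were 2.64 and 2.80 times the power law.

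The Pcdha7 pair with Diaph1 A had the highest ratio of all member pairs, 10.7 times the power law at 876 kb, with an adjusted contact of 0.0148. It stood at percentile 96.5 of pairs at similar distance. Diaph1 D pairs of Ctr-OPCs had contacts of 0.00967 to 0.0144, 1.53 to 3.81 times the power law and a median percentile of 84.2. Here too the listing limit excludes low contacts, since Pcdhga6, for example, would have needed at least 0.00901 to be listed with Diaph1 D in Ctr-OPCs. The 10 Diaph1 D pairs of IFN-γ-OPCs, of which 3 were listed in both tables, had a median percentile of 69.8.

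The constant-region element was listed over a wide range of contacts. Its members had contacts of 0.00329 to 0.0255 in Ctr-OPCs and 0.00412 to 0.0264 in IFN-γ-OPCs. The median percentile at their distance was 40.6 and 34.1, below the middle of all pairs. Pcdhgc3, Pcdhgc4 and Pcdhgc5, with the highest scores, also had the highest contacts of the element, but they differed in contact for their distance. Pcdhgc3 stood at percentiles 54.0 and 81.6, Pcdhgc4 at 53.9 and 51.9, and Pcdhgc5, the nearest, at 12.1 and 12.7. With its high activity this element passes the score limit at lower contact than the others, so its percentiles are not set against those of the interval elements.

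**Figure D3:**
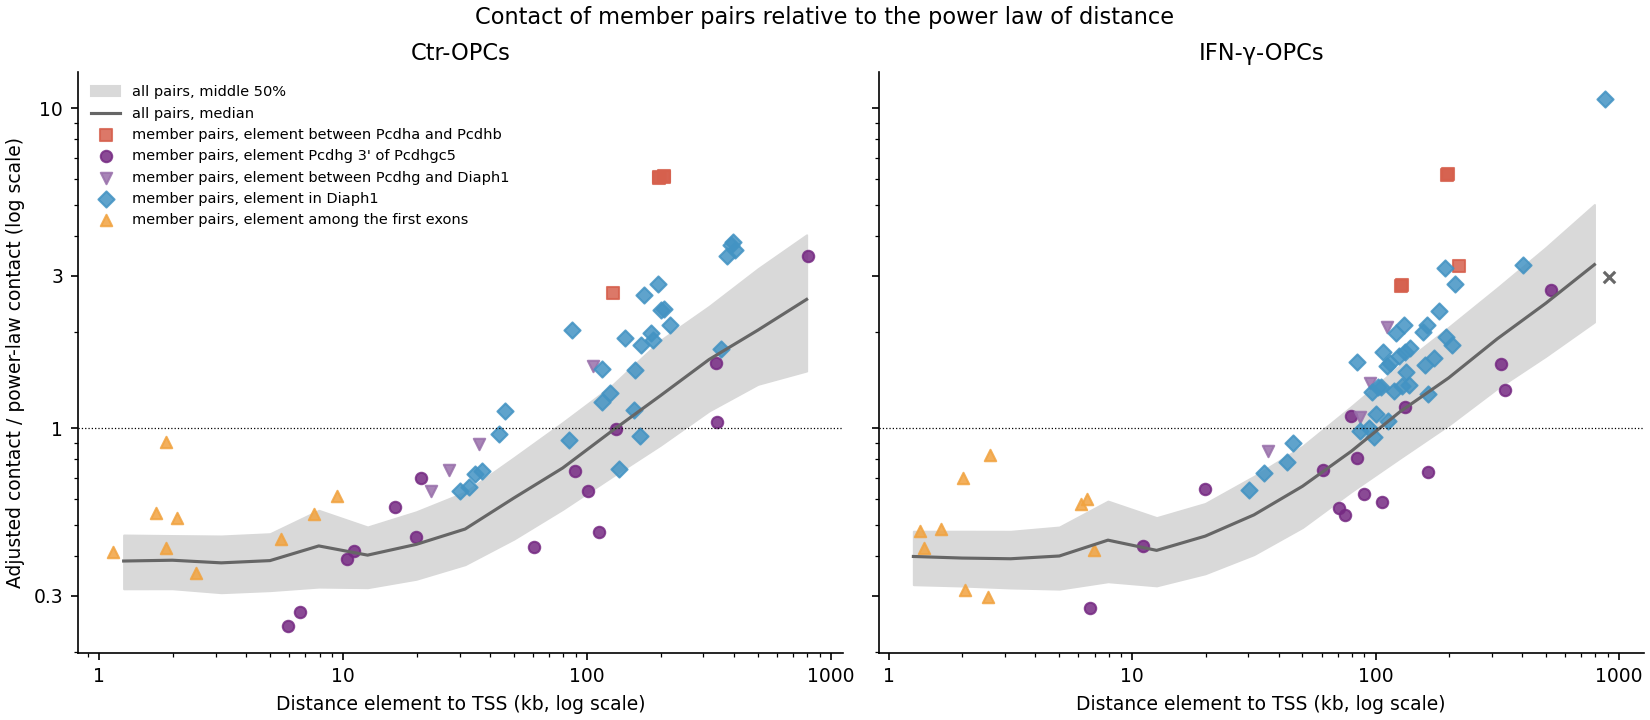
Ratio of the adjusted contact to the power-law contact (vertical, log scale) against distance between element and TSS (horizontal, kb, log scale) for the member pairs in Ctr-OPCs (left) and IFN-γ-OPCs (right), over the median and the middle 50% of all pairs in grey. Squares for the elements between Pcdha and Pcdhb stand above the grey band, at up to 6.13 and 6.21, circles for the Pcdhg intron lie on or under it at most distances, and the highest point is the Pcdha7 pair at 10.7.

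Over the pairs listed in both tables, contact was close in median between the conditions. Of the member pairs, 23 were listed in both tables, 37.1% of those in Ctr-OPCs and 31.9% of those in IFN-γ-OPCs, compared with 45.8% and 42.8% over all genes. Among genes listed in both tables the shares were 42.6% of 54 member pairs in Ctr-OPCs, beside 55.9% over all such genes, and 67.6% of 34 with IFN-γ, beside 53.7%, so the order against all genes differed between the tables. The median log2 ratio of IFN-γ-OPCs over Ctr-OPCs was 0.03 over the 23 pairs (SD over pairs 0.42) and 0.05 over all 29858 matched pairs (SD 0.50). Contact was lower with IFN-γ in 8 of 23, 34.8% beside 44% of all matched pairs. By array the median was 0.03 over 3 Pcdha pairs, 0.08 over 2 Pcdhb pairs and 0.03 over 18 Pcdhg pairs.

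Changes over 1.5-fold were confined, among the 23, to Pcdhga12, the last variable gene of the Pcdhg array. Its contact with the constant-region element went from 0.00599 to 0.0104, a ratio of 1.74, and its contact with Diaph1 A from 0.00974 to 0.0171, a ratio of 1.75. Contact with Diaph1 B went the other way, from 0.0209 to 0.0101, a ratio of 0.483, although A and B lie in neighbouring contact bins. Increases of this size were found in 2 of 23 member pairs, beside 12% of all matched pairs, and decreases in 1 of 23, beside 8.33%. The log2 ratios of Pcdhga12, 0.80, 0.81 and -1.05, stand beside an SD of 0.50 over all matched pairs, and no replicate spread is known.

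By element, contact with the constant-region element was higher in IFN-γ-OPCs for 6 of 7 matched members, with a median log2 ratio of 0.23. Over all matched pairs it was higher in 16297 of 29858. Among the 6, Pcdhgc4 and Pcdhgc5 have the same contact values, 0.0255 and 0.0264, since they share a bin. Pcdhb17 went from 0.00329 to 0.00412, Pcdhga5 from 0.00711 to 0.00833 and Pcdhgc3 from 0.0170 to 0.0240. Pcdhga9 was the exception, from 0.00738 to 0.00626. For Diaph1 D contact was lower in 3 of 3, beside 44% of all matched pairs, with a median of -0.38. Among them was Pcdhga4, from 0.0144 to 0.00985. Contacts of 1 element share its bin and its reads, so these counts are not independent.

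For pairs listed in a single table the other table still bounds the contact, because a pair of a listed gene with a listed element is missing only if its score was under 0.02. Contact of Pcdhga6 with Diaph1 A was 0.0128 in Ctr-OPCs and under 0.00464 in IFN-γ-OPCs, at least 2.76-fold lower. Pcdhga5 with the same element was at least 1.57-fold lower, whereas Pcdhga9 with Diaph1 A was at least 1.73-fold higher in IFN-γ-OPCs. With the constant-region element the bounds went both ways. Pcdha12 was at least 1.42-fold and Pcdhb18 at least 1.23-fold lower with IFN-γ. Pcdhb19 was at least 1.61-fold and Pcdhga1 at least 1.24-fold higher. With Diaph1 D, 4 were lower, by at least 1.20-fold (Pcdhga1) to at least 1.45-fold (Pcdhb17), and Pcdhga6 was at least 1.04-fold higher. Over the 17 genes of both tables and the 8 shared elements, 20 combinations were listed in Ctr-OPCs but not with IFN-γ, and 9 the reverse. A bound over 1.5-fold was reached in 2 of the former and 2 of the latter. The other bounds were lower or could not be given, and since a bound is a least value the size of those changes is not known. Such combinations and bounds are not given for other genes. Over all genes of both tables, 55.9% of 54519 pairs in Ctr-OPCs and 53.7% of 57069 with IFN-γ were also listed under the other condition.

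The shared elements had similar activity in both conditions. The constant-region element went from 5.97 to 4.78, a log2 ratio of -0.32, and the 3′ flank element from 1.82 to 2.14, a log2 ratio of 0.23. The other 6 had log2 ratios between -0.16 and 0.05. In all, 5 of 8 were lower, beside 57.9% of all 19332 matched elements, with a median of -0.03 compared with -0.08. How activity was scaled between the conditions is not given, and after division by each table's median activity the median of the 8 was 0.07, with the opposite sign.

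**Figure D4:**
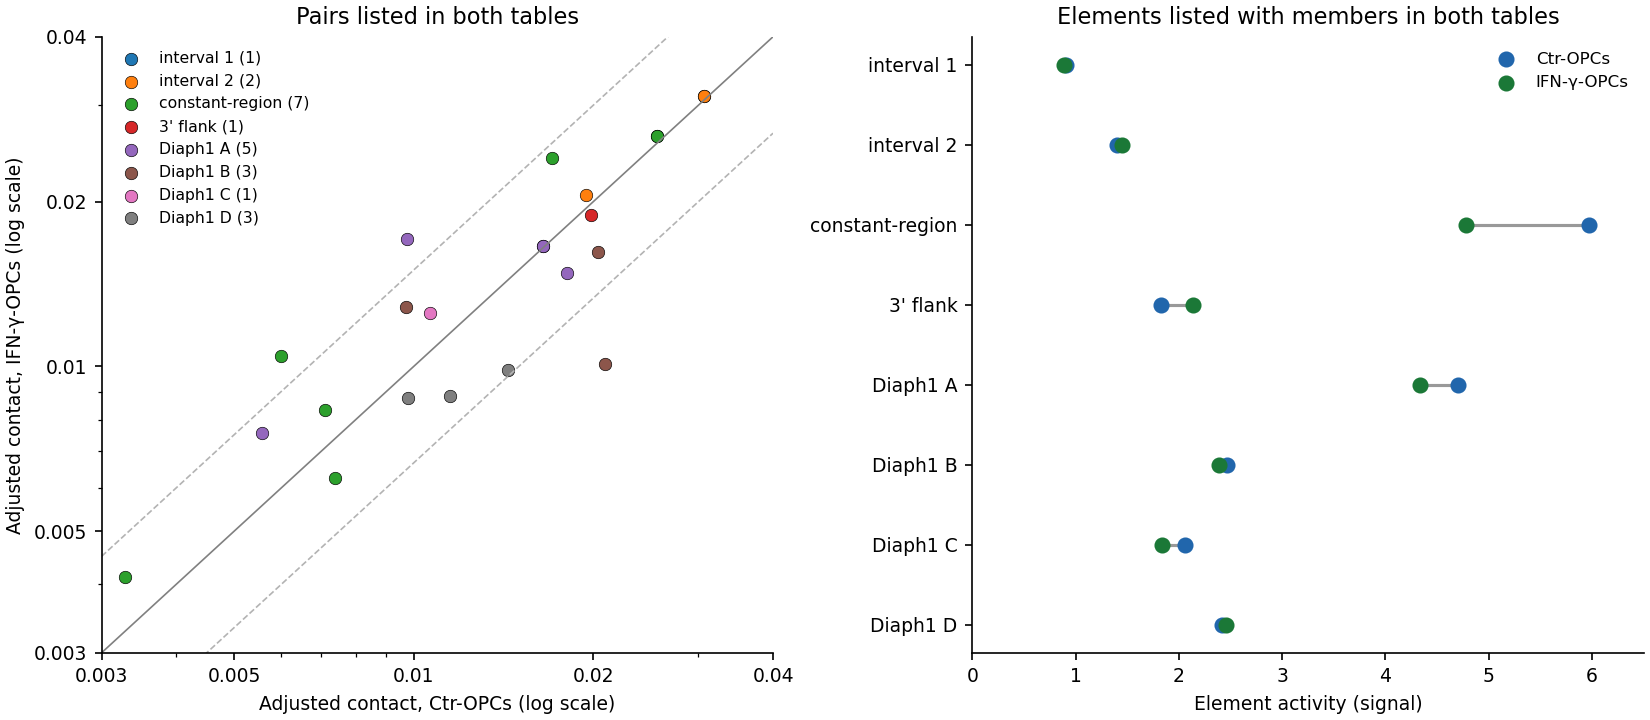
Left, adjusted contact in IFN-γ-OPCs against Ctr-OPCs (log axes) for the 23 member pairs listed in both tables, coloured by element with the number of pairs in brackets, with a solid line at equality and dashed lines at 1.5-fold. Right, activity (signal) of the 8 shared elements in both conditions, where the widest gap is that of the constant-region element, 5.97 and 4.78, and on the left 3 points, all Pcdhga12, lie outside the dashed lines.

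Gene totals, the summed product of activity and contact around a promoter, differed along the locus more than between conditions. Totals were higher toward the 3′ end of the locus, with the rise within Pcdhg, with a Spearman correlation over genes of 0.89 over 21 members in Ctr-OPCs and 0.92 over 29 in IFN-γ-OPCs. Neighbouring genes share elements and contact bins, so this is a description of the locus. Pcdha7, the first listed gene, had 0.820 in IFN-γ-OPCs, Pcdhga1 had 1.04 and 0.992, and Pcdhgc5, at the 3′ end, had 1.85 and 1.90. A score of 0.05 for Pcdhgc5 therefore stands for more activity times contact than the same score for a Pcdha gene.

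Totals were lower with IFN-γ in 14 of the 17 members of both tables (82.4%), beside 64.3% of all genes. The size of this difference was small, with a median log2 ratio of -0.07 over the members and -0.07 over all 20321 genes of both tables. All 8 variable Pcdhg genes were lower, with a median of -0.11. The 4 C-type members of both tables had 2 higher and 2 lower, with a median of 0.02. The non-clustered protocadherins had a median of -0.11, with 9 of 12 lower.

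Among the listed members, promoter activity separated C-type from variable genes. The 4 listed C-type members of Ctr-OPCs had quantiles of 0.782 to 0.932, and the 5 of IFN-γ-OPCs 0.754 to 0.899. Variable genes reached at most 0.711 and 0.708, with medians of 0.577 over 17 genes and 0.558 over 24, below the medians of 0.688 and 0.686 of all target genes. The listed groups did not overlap in either condition, with smallest gaps of 0.0710 and 0.0460, and no test was made. Quantiles are known for only 17 and 24 of the 52 variable genes, and Pcdhac2 was not listed in Ctr-OPCs. Pcdhgc3 had the highest quantile of the listed members in both conditions, 0.932 and 0.899.

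Between conditions the quantile of C-type promoters moved by a median of 0.0197, and that of the 17 members of both tables by 0.0501, beside 0.0321 over all genes. The largest shifts were in neighbouring Pcdhb genes and went in opposite directions. Pcdhb17 went from 0.657 to 0.403, Pcdhb18 from 0.401 to 0.570 and Pcdhb19 from 0.432 to 0.707. Values near 0.4 lie at the entry limit of the tables, so genes such as Pcdhb17 in IFN-γ-OPCs and Pcdhb18 in Ctr-OPCs were close to being left out.

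**Figure D5:**
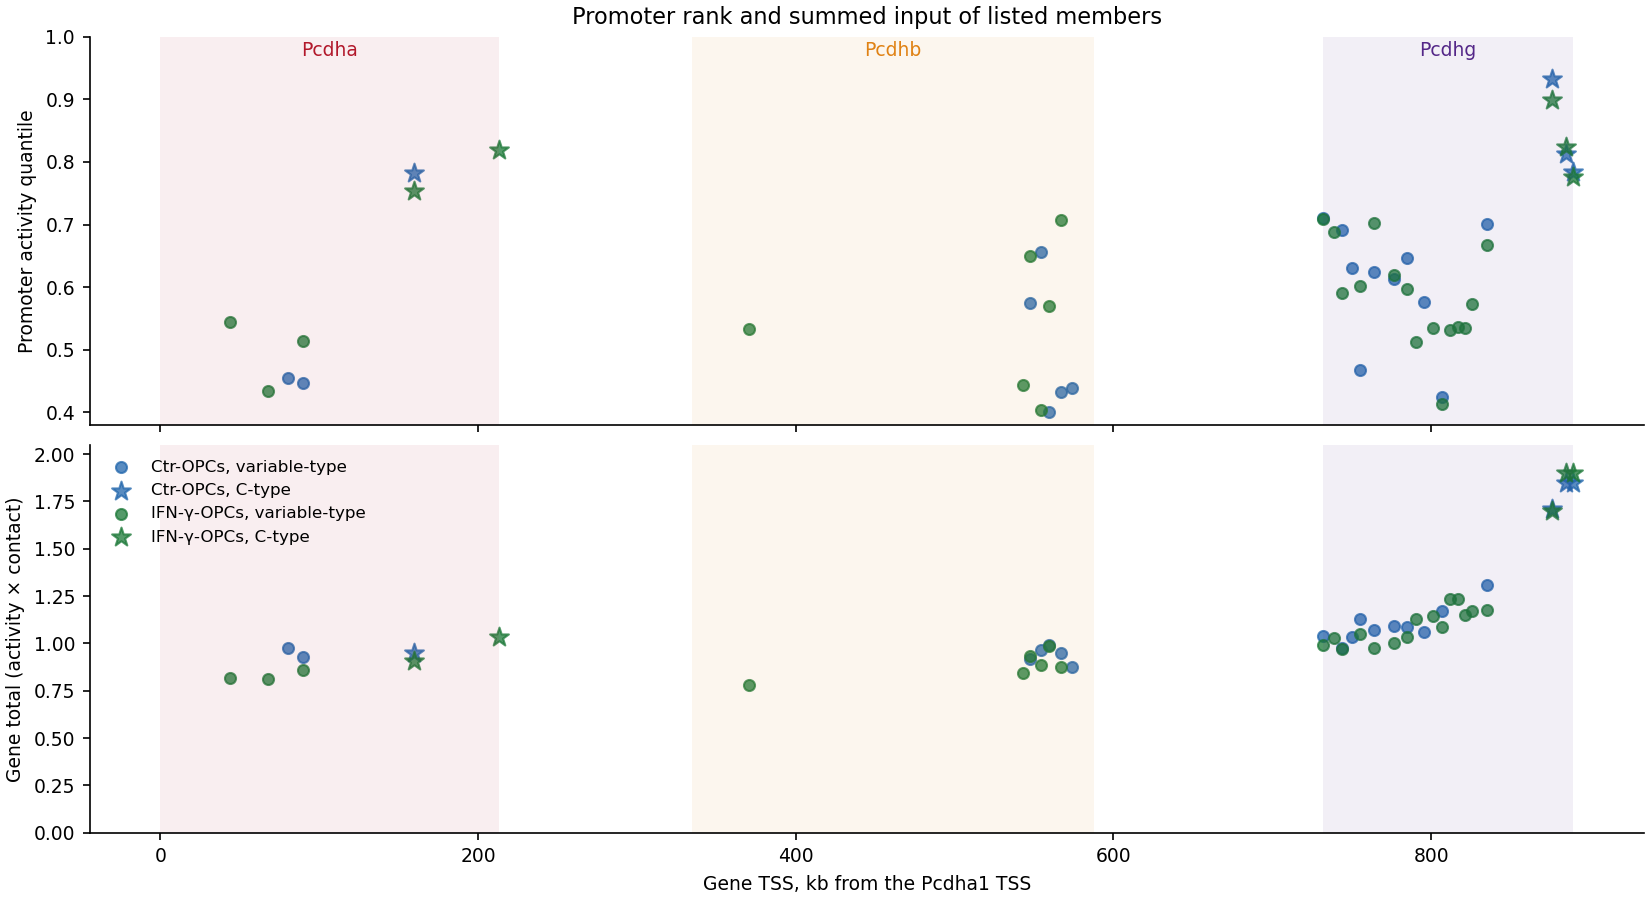
Promoter activity quantile (top) and gene total (bottom, activity times contact) of the listed members against TSS position in kb from the Pcdha1 TSS, in Ctr-OPCs (blue) and IFN-γ-OPCs (green), with stars for C-type and circles for variable genes and shading from the first to the last TSS of each array. Stars lie above all circles in the top panel, and totals stay at or below 1.04 up to Pcdhga1 and climb within Pcdhg, to 1.85 in Ctr-OPCs and 1.90 with IFN-γ.

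Target genes other than members were listed with the shared elements too, 8 and 7 of them with the constant-region element. Of 8 protein-coding neighbours, Diaph1 was listed with Diaph1 A in Ctr-OPCs (0.0508) and not at all in IFN-γ-OPCs. Slc25a2, a mitochondrial carrier gene between the Pcdhb and Pcdhg arrays, had 2 pairs with shared elements in IFN-γ-OPCs and none in Ctr-OPCs. The pseudogene Pcdhgb8, left out of the members by its biotype, had 3 and 5 pairs. Genes of loop and chromatin factors, from Ctcf and cohesin subunits to the silencing factors Dnmt3b, Setdb1 and Smchd1, were examined as target genes of their own: 9 of 12 were listed in each table, beside 57% and 58.5% of protein-coding genes. They had 5 connections in Ctr-OPCs and 7 with IFN-γ. Of the 12 genes, 3 had more (Smc3, Smchd1 and Stag1) and 1 had fewer (Stag2), beside 14.9% and 13% of all target genes. Smchd1 and Stag1 were not listed in Ctr-OPCs, so their 0 there stands for an absent gene. Ctcf itself had 1 connection in each, at 0.0704 and 0.0726.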

How the data were processed

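Ctr-OPCs and IFN-γ-OPCs were compared through the 2 tables of enhancer predictions that the labels assign to the 3 H3K27ac HiChIP libraries of each. The authors aligned reads to mm10 and de-duplicated them with HiC-Pro, and combined the contacts with bulk ATAC-seq and H3K27ac CUT&RUN in the ABC model. In the deposited tables the activity is a signal from ATAC-seq and H3K27ac coverage, and the ABC score is a fraction of the gene total set by the authors. The promoter quantile, contact at 5 kb bins, adjusted contact, power-law contact, the power-law score and the product of activity and contact were treated as deposited score values. How the authors scaled these between conditions is not given in the sources used here. The tables start at a score of 0.02 and hold no self-promoter pairs. The short tables hold the same scores and were not used.

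The members, the comparison lists and the markers were chosen with earlier results of these data known. Symbols came from GENCODE M21 (GRCm38), and all listed members had the annotated TSS. By rule, the named members were the first and last listed gene of each array, those with the most connections or the highest score, the C-type genes, those with the largest change in connections and those in 1 table; the others given with values were chosen after their values were seen. Pairs were matched between tables when their elements overlapped by at least 1 bp with the same gene and the match was mutual. The gene total was the product divided by the score. The bound on an unlisted contact was 0.02 times the gene total, divided by the activity. As a check, 36489 listed pairs were looked up for another gene with its TSS in the same contact bin, of which 1 was not listed there, and its implied score was under 0.02. Matching was tested on simulated data, where all 46607 simulated pairs (100%) were matched rightly. The simulated elements were only shifted slightly at unchanged width. Elements whose width differs between conditions, such as Diaph1 B, were not covered by this check. Element sequences for CpG ratios were read from GRCm38.p6.

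Both depth and replicate spread are unknown from the tables, so no test was made, and shares carry Wilson 95% intervals for counting error where given. The tools were pyfaidx 0.9.0.4, matplotlib 3.10.9, SciPy 1.17.1, NumPy 2.4.6, pandas 2.3.3 and Python 3.11.15. Alternatives were other score limits, the power-law score, genes of both tables alone, a stricter overlap, contact before adjustment, and division by table medians.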

Additional observations from a re-analysis of the deposited data

How the results depend on the processing

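No paired analysis was possible because each condition has 1 pooled table, and no single library has values of its own. Of the recomputed values 23 kept their size, 34 moved and 1 changed sign.

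The number of connections followed the score limit. Over all deposited pairs it was 62 and 72 in Ctr-OPCs and IFN-γ-OPCs (Pcdha 8 and 9, Pcdhb 10 and 6, Pcdhg 44 and 57), and above 0.1 it was 0 in both and in each array, which left no elements to count there. With the power-law score, over listed pairs only, Pcdha had 1 connection in each condition, a different pair in each, in place of 0 and 3. Genes listed under both conditions held 5 of the 8 connections of IFN-γ-OPCs, and members other than C-type held 2 in Ctr-OPCs and 4 with IFN-γ.

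Above 0.05, 3 of the 5 pairs of Ctr-OPCs (60%) were shared, beside 49.5% over all genes, and 3 of the 8 with IFN-γ (37.5%), beside 46.3%. At 0.05, 33.3% of elements in Ctr-OPCs had at least 2 members, beside 29.0% over all elements. Median scores at that limit were 0.0627 for Pcdha in IFN-γ-OPCs, 0.0587 for Pcdhb in Ctr-OPCs, and 0.0711 and 0.0664 for Pcdhg, with no value for the other arrays, which had no connection. Taking the highest score of each gene gave 0.0423 and 0.0523 for Pcdha and 0.0394 and 0.0351 for Pcdhg.

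The median log2 contact ratio was 0.0559 for Pcdha over genes and 0.15 for Pcdhb before adjustment. After division by each table's median, the log2 gene totals were -0.0384 for Pcdha, -0.0171 for Pcdhb and -0.0243 for Pcdhg, and the median log2 activity of the shared elements was 0.0739 in place of -0.03. These shifts follow from the table medians themselves, which differ by -0.11 for activity and -0.05 for totals. The depth behind the tables is unknown, so how far it limits these values cannot be said.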
